A study of Homo sapiens with 24 samples.

Results

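The mitotic genes described here are 43 genes whose mRNAs accumulate as cells approach and pass through cell division. They were chosen by name, by a rule that holds no measured value but was written with earlier results of these data known: 11 cyclins, CDK1 and mitotic kinases, 4 regulators of the anaphase-promoting complex (APC/C) and its checkpoint, 8 kinesin motors, 8 centromere, kinetochore and passenger-complex genes, 8 spindle assembly genes, 2 cytokinesis genes and 2 genes of chromosome structure. All 43 had a row among the 12547 endogenous genes of the table, and all 43 passed the filter on low values. PolyA RNA came from U2OS, a human osteosarcoma line, in 24 libraries, 2 in each of 12 groups: 4 genotypes, each sampled after 0, 4 and 8 h in 5 µg/mL actinomycin D, which blocks transcription, together with 200 µM sodium arsenite, an oxidative stressor. The genotypes sgQKI+QKI7-WT and sgQKI+QKI7-△KH carry a guide against QKI and an added QKI7, intact or labelled as without its KH domain. The others were sgQKI+EV, with the same guide and no added QKI7, and sgNS+EV, without the QKI guide. Every library after 0 h had both drugs, and no arm with actinomycin D alone was analysed here, so all losses below are losses in the presence of arsenite. Whether a line was a clone or a pool, and whether the 2 libraries of a group came from separate cultures, is not given in the sources used here, so p-values measure only the spread between these libraries, which may be technical. The comparisons address how QKI influences mRNA stability.

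Entry into mitosis is driven by CDK1 bound to cyclins A and B, and the kinases PLK1, Aurora A and Aurora B then organise the spindle and the chromosomes. Kinesins move and sort microtubules, kinetochores couple chromosomes to them, and the APC/C with CDC20 ends mitosis by destroying cyclin B and securin. The genes are transcribed late in the cell cycle, largely through promoters with CCAAT boxes and a cell cycle genes homology region (CHR), the core of which reads TTTGAA or TTTAAA. QKI is an RNA-binding protein of the STAR family whose KH domain recognises ACUAAC and ACUAAU, and QKI7 is one of its splice isoforms.

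The promoters are shown first because their short motifs are shared by most members and played no part in choosing them. Of the 43 genes, 38 had a promoter in the RefSeq table (GRCh38.p14, 250 bases before to 50 after the start). The letters CCAAT together with TTTGAA or TTTAAA, on either strand, occurred in 28 of these 38 promoters (73.7%), against 570 of the 9377 promoters of measured genes (6.08%). TTTGAA or TTTAAA alone occurred in 34 of 38 (89.5%), against 15.2% of promoters of measured genes, and CCAAT in 32 of 38 (84.2%), against 36.5%. TTTAAA reads the same on both strands, and motifs that share a base were each counted. The 100 bases before the RefSeq start are printed on the gene's strand for 4 members described below, with the motif letters of either strand in capitals. The 4 printed have both motifs in this stretch, but many members do not. CDK1, AURKB, MAD2L1 and NUF2 have neither there. TOP2A, CCNA2, BUB1, NEK2, KIF14, CENPF, DLGAP5 and ECT2 have only CCAAT. BUB1B, CENPE, CENPA and ANLN have only TTTGAA or TTTAAA. The shares above are for the full window. A match describes these letters and is not evidence of a bound factor.
CCNB1, chr5:69167050-69167149, plus strand: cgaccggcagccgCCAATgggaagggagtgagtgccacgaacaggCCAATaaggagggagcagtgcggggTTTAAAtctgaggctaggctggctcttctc
PLK1, chr16:23678789-23678888, plus strand: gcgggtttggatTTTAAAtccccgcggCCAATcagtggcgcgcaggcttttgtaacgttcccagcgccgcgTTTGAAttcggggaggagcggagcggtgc
KPNA2, chr17:68035635-68035734, plus strand: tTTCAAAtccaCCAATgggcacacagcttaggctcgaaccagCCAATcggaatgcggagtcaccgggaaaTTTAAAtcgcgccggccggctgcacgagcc
CDC20, chr1:43358881-43358980, plus strand: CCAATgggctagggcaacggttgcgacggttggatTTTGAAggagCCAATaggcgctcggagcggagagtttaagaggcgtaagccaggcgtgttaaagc

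QKI hexamers were looked for in the 3′ UTRs of 1 transcript per gene (GENCODE 29, GRCh38), which was available for all 43 members. ACUAAC or ACUAAU, on the transcribed strand, occurred in the 3′ UTR of 11 of 43 members (25.6%), against 3920 of 11312 measured genes (34.7%). Per length the density was 0.369 sites per kilobase in the members and 0.354 in all measured genes. Anywhere in the transcript, the hexamer occurred in 25 of 43 members (58.1%), against 5330 of 11312 measured genes (47.1%), at 0.344 sites per kilobase in the members and 0.244 in all measured genes. The AU-rich heptamer UAUUUAU occurred in 8 of 43 members (18.6%), against 33.1% of measured genes. CCNB1, MKI67, MAD2L1, KIF14, ANLN and ECT2 also have sites in the 3′ UTR, which are not printed. The sites of 5 members whose loss is described below are printed as RNA, with the hexamer in capitals.
KIF11, chr10:92654843-92654866, plus strand: agacaucugACUAAUggcucugug
KIF23, chr15:69448110-69448133, plus strand: uacuuauaaACUAAUucacacaag
CKAP2L, chr2:112737560-112737583, minus strand: uguggaaaaACUAAUaauuaaaaa
TTK, chr6:80042509-80042527, plus strand: uaaaaugacACUAACauuu
ASPM, chr1:197084132-197084155, minus strand: auguaauaaACUAAUaugucauaa

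QKI itself, the targeted gene, was measured first as a check of the labels. QKI signal at 0 h was 60.4 and 46.3 in sgQKI+QKI7-WT, 47.5 and 50.2 in sgQKI+QKI7-△KH and 36.0 and 32.7 in sgQKI+EV, against 60.0 and 48.2 in sgNS+EV. In sgQKI+EV both values lay below all others at 0 h, and the fitted difference from sgNS+EV was -0.63 ± 0.14 log2 (SE, adjusted p = 0.0264, limma), so the mRNA was lower but present. At the protein level nothing was measured here. QKI mRNA was 0.61 ± 0.14 log2 higher in sgQKI+QKI7-WT than in sgQKI+EV, which did not pass the threshold (adjusted p = 0.142, limma). Of 9 mesenchymal or osteosarcoma markers 7 had a row, with summed signals of 3611 to 6371 over the libraries. Much of that sum was VIM, between 2504 and 4360. COL1A2 and ALPL had no row, and RUNX2 was low, at 3.82 to 19.39. The labels call U2OS epithelial, but of 5 epithelial markers only EPCAM and CLDN4 had a row, with a summed signal of 6.44 to 24.96, and the defining markers CDH1, KRT19 and KRT5 had none. Of 5 blood cell markers 1 had a row, CD68, at 11.5 to 23.5. Of 3 hepatocyte markers 1 had a row, SERPINA1, at 132 to 201. Values are a linear signal. Its sum over the ERCC rows, RNA added as a scale, was 11480 to 11940 in every library, while the total of the endogenous genes without ribosomal RNA was 667500 to 1211000. Read depth is unknown. The log2 values of the 2 libraries of a group had an r of 0.9889 to 0.9982 over the genes, a description that treats no gene as a replicate. The lowest was sgQKI+QKI7-WT at 4 h.

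All 43 mitotic mRNAs fell over 8 h of transcription arrest in every genotype. A median of 48.3% of the 0 h signal was left at 8 h in sgQKI+QKI7-WT, 45.9% in sgQKI+QKI7-△KH, 42.9% in sgQKI+EV and 57.7% in sgNS+EV. Over all genes the corresponding medians were 55.2%, 55.9%, 53.3% and 58.5%, so the members' median lay close to that of all genes in sgNS+EV and lower in the 3 lines with the QKI guide. The closeness in sgNS+EV depends on the scale, since the members' log2 median there was 0.09 below that of all genes on the ERCC scale, 0.05 below with library totals and 0.34 below with quantile normalisation. The range over members at 8 h was 24.1 to 71.2% in sgQKI+QKI7-WT, 23.7 to 67.5% in sgQKI+QKI7-△KH, 20.8 to 66.8% in sgQKI+EV and 29.1 to 78.9% in sgNS+EV. These percentages are ratios of group means, while log2 changes are those of the signal plus 1 from the limma fit.

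As log2 changes, the median fall from 0 to 8 h was -1.04 in sgQKI+QKI7-WT, -1.12 in sgQKI+QKI7-△KH, -1.21 in sgQKI+EV and -0.79 in sgNS+EV. The medians of all genes were -0.77, -0.77, -0.82 and -0.70 in the same order. Each of the 43 passed in every genotype (limma, Benjamini-Hochberg adjustment over 12547 genes, threshold 0.05, two-sided). So many genes fell that these counts stand beside a background of 90.0% of all genes called lower in sgQKI+QKI7-WT, 90.6% in sgQKI+QKI7-△KH, 90.5% in sgQKI+EV and 88.2% in sgNS+EV. The number of members below the median change of all genes was 34 in sgQKI+QKI7-WT, 36 in sgQKI+QKI7-△KH, 37 in sgQKI+EV and 25 in sgNS+EV. The ERCC scale sets how many genes count as falling. Scaled to library totals, the median change of all genes over 8 h moved to -0.33 in sgQKI+QKI7-WT, -0.26 in sgQKI+QKI7-△KH, -0.29 in sgQKI+EV and -0.29 in sgNS+EV, with 7431 lower and 1200 higher, 6611 and 1453, 6975 and 1390, and 6914 and 1252 genes in the same order. On that scale 38, 39, 41 and 33 of the 43 members still passed as lower and 0 as higher, with medians of -0.56, -0.57, -0.63 and -0.34. The 8 h change of AURKB and PTTG1 in sgNS+EV was then 0.02 and 0.06, and that of UBE2C there and in sgQKI+QKI7-WT was also above 0. In bulk RNA, fewer cells in late cell cycle phases and less mRNA per cell cannot be told apart, at 0 h or during the chase.

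**Figure D1:**
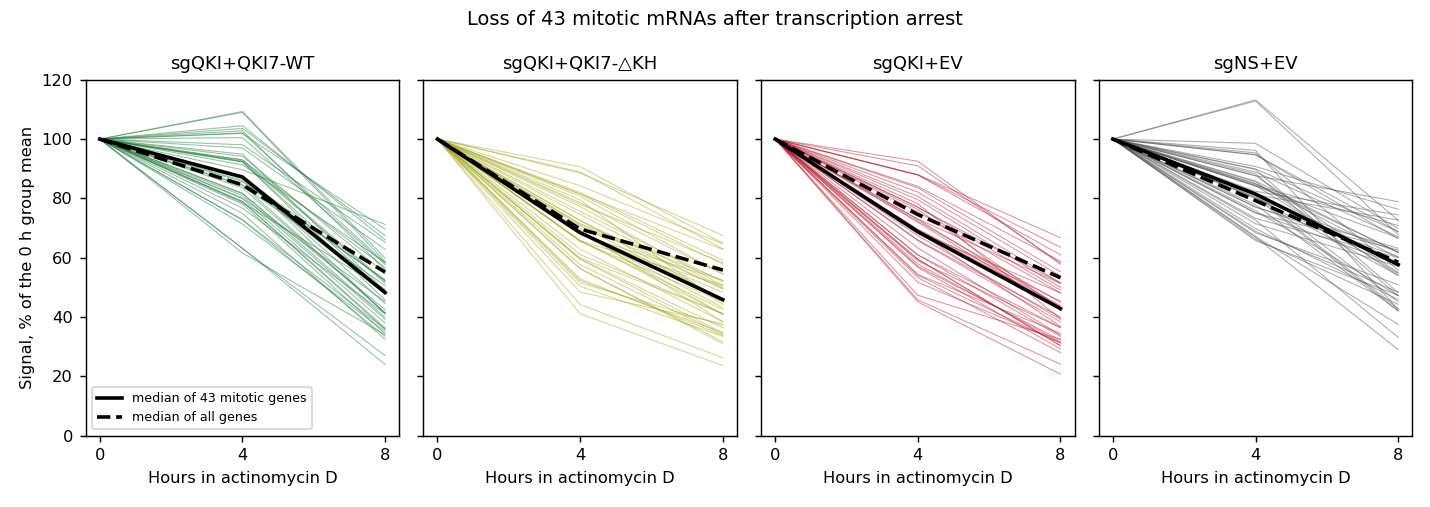
Signal of each of the 43 mitotic mRNAs as a percentage of its own 0 h group mean (vertical axis) against hours in actinomycin D with arsenite, 1 panel per genotype and 1 thin line per gene. The solid black median of the members ends at 48.3%, 45.9%, 42.9% and 57.7% from left to right, and the dashed median of all genes at 55.2%, 55.9%, 53.3% and 58.5%.

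From 0 to 4 h, 23 members fell in sgQKI+QKI7-WT, where 42.9% of all genes were called lower, and 41 fell in sgQKI+QKI7-△KH, where 73.6% were. In sgQKI+EV 40 fell in those hours beside 63.8% of all genes, and in sgNS+EV 31 fell beside 59.8%. From 4 to 8 h all 43 fell in sgQKI+QKI7-WT (83.7% of all genes), sgQKI+QKI7-△KH (58.2%) and sgQKI+EV (79.2%), and 40 fell in sgNS+EV (64.9%). AURKB, CDC20 and UBE2C were the 3 that missed the threshold in sgNS+EV in the later interval. In the first 4 h the median log2 change of the members was -0.20 in sgQKI+QKI7-WT, -0.54 in sgQKI+QKI7-△KH, -0.54 in sgQKI+EV and -0.29 in sgNS+EV. The medians of all genes were then -0.23, -0.48, -0.39 and -0.31 in the same order. In the last 4 h the members' median was -0.86 in sgQKI+QKI7-WT, -0.56 in sgQKI+QKI7-△KH, -0.68 in sgQKI+EV and -0.50 in sgNS+EV. Those of all genes were -0.54, -0.30, -0.44 and -0.39. The smaller early and larger late fall in sgQKI+QKI7-WT was thus also seen in the median of all genes. The difference between the intervals was not tested. No member rose past the threshold in either interval on the ERCC scale, while with library totals 7 members rose from 0 to 4 h in sgNS+EV, where 7.40% of all genes were called higher. HMMR, a spindle and centrosome protein, and NUF2, a subunit of the kinetochore NDC80 complex, stood highest at 4 h in sgQKI+QKI7-WT and sgNS+EV. They reached up to 109% of 0 h in sgQKI+QKI7-WT and 113% in sgNS+EV. The 4 h libraries of HMMR in sgQKI+QKI7-WT lay apart, with a mean of 74.5 and an SD of 17.5. In sgQKI+EV the highest member was AURKB at 92.5%, with HMMR at 73.05%. In sgQKI+QKI7-△KH it was CDC20 at 90.7%, with HMMR at 69.7%.

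The members' share of all mRNA signal, which does not depend on the ERCC scale, also went down. At 0 h the share was 0.855 and 0.833% in sgQKI+QKI7-WT, 0.84 and 0.853% in sgQKI+QKI7-△KH and 0.838 and 0.846% in sgQKI+EV, against 0.781 and 0.788% in sgNS+EV. At 4 h the share was 0.728 and 0.724% in sgQKI+QKI7-WT, 0.706 and 0.694% in sgQKI+QKI7-△KH and 0.674 and 0.665% in sgQKI+EV, against 0.762 and 0.757% in sgNS+EV. At 8 h the share was 0.573 and 0.581% in sgQKI+QKI7-WT, 0.578 and 0.573% in sgQKI+QKI7-△KH and 0.542 and 0.543% in sgQKI+EV, against 0.616 and 0.621% in sgNS+EV. The 2 libraries of each group lay close together, and no 0 h library overlapped an 8 h library. At 0 h both sgNS+EV libraries were below the other 6, and at 8 h both were above the other 6.

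**Figure D2:**
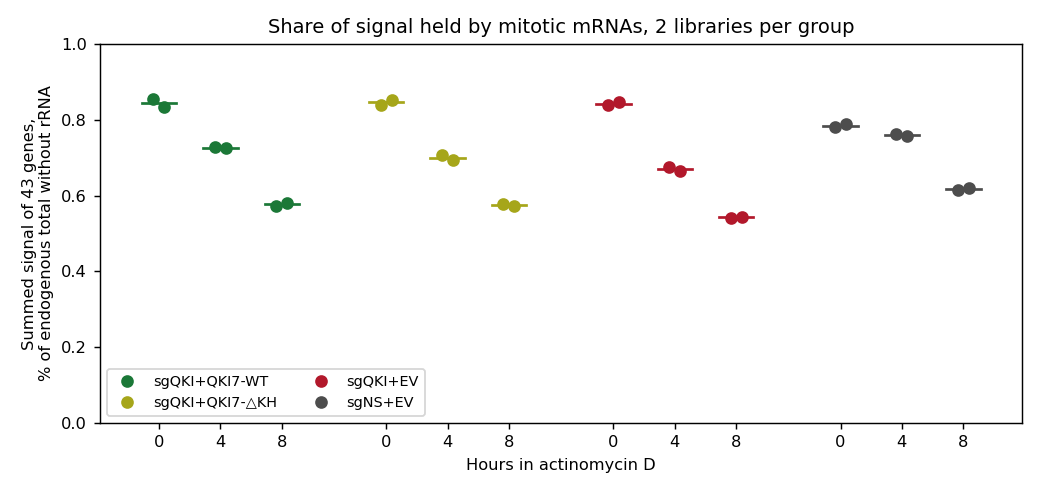
Summed signal of the 43 mitotic genes as a percentage of the endogenous total without ribosomal RNA (vertical axis, from 0) for each of the 24 libraries, by genotype and hours in actinomycin D. Points are libraries and lines are means of 2: the sgNS+EV libraries start at 0.781 and 0.788% and end at 0.616 and 0.621%, above the 8 h libraries of the other 3 genotypes.

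Among the cyclins, CDK1 and the mitotic kinases, CCNA2, TTK and CCNB1 lost most and AURKB and CCNB2 least. CDK1, the kinase that starts mitosis (GRCh38 chromosome 10, 60778331 to 60794852, plus strand), kept 45.3% of its 0 h signal in sgQKI+EV and 60.0% in sgNS+EV after 8 h. CDK1 signal at 0 h was 241 and 226 in sgQKI+QKI7-WT, 269.9 and 262 in sgQKI+QKI7-△KH and 231 and 224 in sgQKI+EV, against 203 and 205 in sgNS+EV. At 4 h CDK1 was 204 and 203 in sgQKI+QKI7-WT, 182 and 182 in sgQKI+QKI7-△KH and 163 and 154 in sgQKI+EV, against 170.3 and 176 in sgNS+EV. At 8 h CDK1 was 126 and 119 in sgQKI+QKI7-WT, 129 and 128 in sgQKI+QKI7-△KH and 104 and 103 in sgQKI+EV, against 121 and 124 in sgNS+EV. At 8 h both sgQKI+EV libraries were below all other libraries, and the sgNS+EV libraries did not overlap them. CDK1 changed over 8 h by -0.93 log2 in sgQKI+QKI7-WT, -1.04 in sgQKI+QKI7-△KH, -1.13 in sgQKI+EV and -0.73 in sgNS+EV, each ± 0.06 (SE) and with an adjusted p of at most 2.51e-10 (limma). CCNB1, cyclin B1, the partner of CDK1 in mitosis (chromosome 5, 69167010 to 69178245, plus strand), carries 2 CCAAT and 1 TTTAAA in the promoter stretch printed above. CCNB1 signal at 0 h was 464 and 506 in sgQKI+QKI7-WT, 537 and 502 in sgQKI+QKI7-△KH and 457 and 437 in sgQKI+EV, against 451 and 480.0 in sgNS+EV. At 4 h CCNB1 was 355 and 389 in sgQKI+QKI7-WT, 358 and 360.3 in sgQKI+QKI7-△KH and 327 and 288 in sgQKI+EV, against 320.0 and 321 in sgNS+EV. At 8 h CCNB1 was 205 and 193 in sgQKI+QKI7-WT, 195 and 204 in sgQKI+QKI7-△KH and 167 and 163 in sgQKI+EV, against 215 and 236 in sgNS+EV. CCNB1 pairs of neighbouring rank overlapped at 0 h, and at 8 h the sgNS+EV pair was the highest and the sgQKI+EV pair the lowest. CCNB1 changed over 8 h by -1.28 log2 in sgQKI+QKI7-WT, -1.38 in sgQKI+QKI7-△KH, -1.43 in sgQKI+EV and -1.04 in sgNS+EV, each ± 0.07 (SE) and with an adjusted p of at most 4.86e-11 (limma).

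CCNA2, cyclin A2, works with CDK2 and CDK1 from S phase into early mitosis. CCNA2 signal at 0 h was 175 and 168 in sgQKI+QKI7-WT, 196 and 194 in sgQKI+QKI7-△KH and 171 and 169 in sgQKI+EV, against 154 and 162 in sgNS+EV. At 4 h CCNA2 was 146 and 125 in sgQKI+QKI7-WT, 117 and 114 in sgQKI+QKI7-△KH and 105 and 97.0 in sgQKI+EV, against 132 and 124 in sgNS+EV. At 8 h CCNA2 was 63.9 and 59.0 in sgQKI+QKI7-WT, 65.4 and 69.4 in sgQKI+QKI7-△KH and 50.6 and 52.7 in sgQKI+EV, against 66.4 and 68.6 in sgNS+EV. The sgQKI+EV pair of CCNA2 was above the sgNS+EV pair at 0 h and below it at 8 h. CCNA2 changed over 8 h by -1.47 log2 in sgQKI+QKI7-WT, -1.52 in sgQKI+QKI7-△KH, -1.70 in sgQKI+EV and -1.21 in sgNS+EV, each ± 0.07 (SE) and with an adjusted p of at most 3.07e-12 (limma). PLK1, polo-like kinase 1, acts in spindle assembly and cytokinesis (chromosome 16, 23677656 to 23690367, plus strand). PLK1 signal at 0 h was 219 and 257 in sgQKI+QKI7-WT, 269 and 248 in sgQKI+QKI7-△KH and 229.8 and 226 in sgQKI+EV, against 202 and 220.3 in sgNS+EV. At 4 h PLK1 was 214 and 224 in sgQKI+QKI7-WT, 202 and 208 in sgQKI+QKI7-△KH and 189.6 and 166 in sgQKI+EV, against 159 and 158 in sgNS+EV. At 8 h PLK1 was 121 and 109 in sgQKI+QKI7-WT, 111 and 117 in sgQKI+QKI7-△KH and 93.8 and 85.8 in sgQKI+EV, against 117 and 126 in sgNS+EV. Little PLK1 signal was lost by 4 h in sgQKI+QKI7-WT, where 92.3% was left, and at 8 h the sgQKI+EV pair was below all others. PLK1 changed over 8 h by -1.04 log2 in sgQKI+QKI7-WT, -1.17 in sgQKI+QKI7-△KH, -1.33 in sgQKI+EV and -0.79 in sgNS+EV, each ± 0.08 (SE) and with an adjusted p of at most 2.15e-08 (limma).

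AURKA, Aurora A, acts at spindle poles (chromosome 20, 56369389 to 56392337, minus strand). AURKA signal at 0 h was 164 and 181 in sgQKI+QKI7-WT, 197 and 182 in sgQKI+QKI7-△KH and 157 and 156 in sgQKI+EV, against 156 and 163 in sgNS+EV. At 4 h AURKA was 133 and 138 in sgQKI+QKI7-WT, 123 and 126 in sgQKI+QKI7-△KH and 113 and 100.1 in sgQKI+EV, against 124 and 122 in sgNS+EV. At 8 h AURKA was 88.6 and 81.9 in sgQKI+QKI7-WT, 84.4 and 86.8 in sgQKI+QKI7-△KH and 67.4 and 67.6 in sgQKI+EV, against 93.0 and 99.5 in sgNS+EV. The sgQKI+EV pair of AURKA lay below every other library at 8 h, while at 0 h it overlapped sgNS+EV. AURKA changed over 8 h by -1.01 log2 in sgQKI+QKI7-WT, -1.14 in sgQKI+QKI7-△KH, -1.20 in sgQKI+EV and -0.72 in sgNS+EV, each ± 0.07 (SE) and with an adjusted p of at most 6.19e-09 (limma). AURKB, Aurora B, is the kinase of the chromosomal passenger complex. AURKB signal at 0 h was 87.6 and 93.6 in sgQKI+QKI7-WT, 101 and 100.3 in sgQKI+QKI7-△KH and 87.7 and 91.3 in sgQKI+EV, against 86.4 and 85.8 in sgNS+EV. At 4 h AURKB was 89.2 and 100.1 in sgQKI+QKI7-WT, 88.5 and 90.2 in sgQKI+QKI7-△KH and 87.8 and 77.8 in sgQKI+EV, against 70.8 and 71.1 in sgNS+EV. At 8 h AURKB was 61.9 and 57.8 in sgQKI+QKI7-WT, 61.4 and 65.3 in sgQKI+QKI7-△KH and 51.4 and 52.0 in sgQKI+EV, against 61.9 and 66.3 in sgNS+EV. The 4 h pair of AURKB overlapped its 0 h pair in sgQKI+QKI7-WT and sgQKI+EV, and at 8 h sgQKI+EV was below all others. AURKB changed over 8 h by -0.59 log2 in sgQKI+QKI7-WT, -0.66 in sgQKI+QKI7-△KH, -0.78 in sgQKI+EV and -0.42 in sgNS+EV, each ± 0.07 (SE) and with an adjusted p of at most 1.47e-05 (limma). TTK, the spindle checkpoint kinase MPS1, had the largest mean fall of all 43 members. TTK signal at 0 h was 57.2 and 51.0 in sgQKI+QKI7-WT, 65.2 and 61.8 in sgQKI+QKI7-△KH and 55.9 and 53.4 in sgQKI+EV, against 56.7 and 50.7 in sgNS+EV. At 4 h TTK was 40.9 and 27.6 in sgQKI+QKI7-WT, 26.7 and 25.6 in sgQKI+QKI7-△KH and 23.9 and 25.4 in sgQKI+EV, against 37.4 and 34.5 in sgNS+EV. At 8 h TTK was 12.9 and 13.1 in sgQKI+QKI7-WT, 15.2 and 14.9 in sgQKI+QKI7-△KH and 10.2 and 12.5 in sgQKI+EV, against 15.6 and 15.6 in sgNS+EV. The 2 sgQKI+QKI7-WT libraries of TTK lay far apart at 4 h, and at 8 h no genotype's pair overlapped another's. TTK changed over 8 h by -1.97 log2 in sgQKI+QKI7-WT, -2.01 in sgQKI+QKI7-△KH, -2.18 in sgQKI+EV and -1.72 in sgNS+EV, each ± 0.12 (SE) and with an adjusted p of at most 3.73e-11 (limma). TTK half-lives, computed from the 0 and 8 h group means as if loss were exponential, were 3.89 h in sgQKI+QKI7-WT, 3.85 h in sgQKI+QKI7-△KH, 3.53 h in sgQKI+EV and 4.49 h in sgNS+EV.

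The 4 APC/C and checkpoint genes were the most stable set of members, with a median change over 8 h of -0.57 in sgQKI+QKI7-WT, -0.62 in sgQKI+QKI7-△KH, -0.71 in sgQKI+EV and -0.42 in sgNS+EV, smaller in each case than the median of all genes. UBE2C, the ubiquitin-conjugating enzyme of the APC/C, had the smallest mean fall and the largest spread between libraries. UBE2C signal at 0 h was 88.9 and 112 in sgQKI+QKI7-WT, 114 and 113 in sgQKI+QKI7-△KH and 108 and 94.9 in sgQKI+EV, against 90.7 and 101 in sgNS+EV. At 4 h UBE2C was 73.0 and 107 in sgQKI+QKI7-WT, 99.2 and 102 in sgQKI+QKI7-△KH and 93.8 and 84.2 in sgQKI+EV, against 77.9 and 90.2 in sgNS+EV. At 8 h UBE2C was 74.1 and 68.8 in sgQKI+QKI7-WT, 78.1 and 75.3 in sgQKI+QKI7-△KH and 64.8 and 63.8 in sgQKI+EV, against 70.6 and 80.8 in sgNS+EV. The 4 h pair of UBE2C overlapped its 0 h pair in sgQKI+QKI7-WT and lay below it in the other 3 genotypes. UBE2C changed over 8 h by -0.48 log2 in sgQKI+QKI7-WT, -0.56 in sgQKI+QKI7-△KH, -0.64 in sgQKI+EV and -0.34 in sgNS+EV, each ± 0.13 (SE) and with an adjusted p of at most 0.0182 (limma). Scaled to library totals the UBE2C change was 0.01 in sgQKI+QKI7-WT and 0.11 in sgNS+EV, so its direction there depends on the scale. Without the 0 h replicate 2 library, the UBE2C change was -0.31 in sgQKI+QKI7-WT (adjusted p = 0.053) and -0.26 in sgNS+EV (adjusted p = 0.129), and without the 8 h replicate 1 library of sgNS+EV it was -0.24 there (adjusted p = 0.156, limma). PTTG1, securin, which guards sister chromatid cohesion, has closely related gene copies elsewhere in the genome among which reads may have been divided. PTTG1 signal at 0 h was 519 and 557 in sgQKI+QKI7-WT, 582 and 581 in sgQKI+QKI7-△KH and 484 and 486 in sgQKI+EV, against 491 and 521 in sgNS+EV. At 4 h PTTG1 was 564 and 533 in sgQKI+QKI7-WT, 486 and 493 in sgQKI+QKI7-△KH and 459 and 395 in sgQKI+EV, against 474 and 445 in sgNS+EV. At 8 h PTTG1 was 394 and 356 in sgQKI+QKI7-WT, 371 and 382 in sgQKI+QKI7-△KH and 332 and 315 in sgQKI+EV, against 371 and 402 in sgNS+EV. The 4 h pair of PTTG1 overlapped the 0 h pair in sgQKI+QKI7-WT and lay below it in the other 3 genotypes. PTTG1 changed over 8 h by -0.52 log2 in sgQKI+QKI7-WT, -0.63 in sgQKI+QKI7-△KH, -0.58 in sgQKI+EV and -0.39 in sgNS+EV, each ± 0.08 (SE) and with an adjusted p of at most 7.44e-05 (limma).

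CDC20, the activator of the APC/C at anaphase (chromosome 1, 43358955 to 43363203, plus strand), has 2 CCAAT and 1 TTTGAA in the promoter stretch printed above. CDC20 signal at 0 h was 428 and 506 in sgQKI+QKI7-WT, 532 and 471 in sgQKI+QKI7-△KH and 435 and 424 in sgQKI+EV, against 426 and 459 in sgNS+EV. At 4 h CDC20 was 421 and 494 in sgQKI+QKI7-WT, 433 and 477 in sgQKI+QKI7-△KH and 417 and 365 in sgQKI+EV, against 357 and 362 in sgNS+EV. At 8 h CDC20 was 318 and 291 in sgQKI+QKI7-WT, 313 and 338 in sgQKI+QKI7-△KH and 255 and 245 in sgQKI+EV, against 307 and 337 in sgNS+EV. CDC20 at 4 h overlapped its 0 h pair in sgQKI+QKI7-WT and sgQKI+QKI7-△KH and lay below it in sgQKI+EV and sgNS+EV. CDC20 changed over 8 h by -0.61 log2 in sgQKI+QKI7-WT, -0.62 in sgQKI+QKI7-△KH, -0.78 in sgQKI+EV and -0.46 in sgNS+EV, each ± 0.10 (SE) and with an adjusted p of at most 1.41e-04 (limma). MAD2L1, the MAD2 checkpoint protein, fell by 1.02, 0.97, 1.21 and 0.83 on the log2 scale in sgQKI+QKI7-WT, sgQKI+QKI7-△KH, sgQKI+EV and sgNS+EV.

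The 8 kinesins fell by a median of -1.27 in sgQKI+QKI7-WT, -1.33 in sgQKI+QKI7-△KH, -1.43 in sgQKI+EV and -0.95 in sgNS+EV (log2 changes). KIF11, the motor that pushes spindle poles apart, has a QKI hexamer in its 3′ UTR, printed above. KIF11 signal at 0 h was 164 and 163 in sgQKI+QKI7-WT, 195 and 184 in sgQKI+QKI7-△KH and 170.3 and 162 in sgQKI+EV, against 163 and 166 in sgNS+EV. At 4 h KIF11 was 140.1 and 118 in sgQKI+QKI7-WT, 112 and 107 in sgQKI+QKI7-△KH and 103 and 94.4 in sgQKI+EV, against 134 and 122 in sgNS+EV. At 8 h KIF11 was 59.6 and 59.1 in sgQKI+QKI7-WT, 63.5 and 65.7 in sgQKI+QKI7-△KH and 50.6 and 50.3 in sgQKI+EV, against 67.8 and 70.5 in sgNS+EV. KIF11 showed no separation of sgQKI+EV from sgNS+EV at 0 h and a full separation at 8 h, with sgQKI+EV lower. KIF11 changed over 8 h by -1.44 log2 in sgQKI+QKI7-WT, -1.54 in sgQKI+QKI7-△KH, -1.70 in sgQKI+EV and -1.24 in sgNS+EV, each ± 0.07 (SE) and with an adjusted p of at most 3.42e-12 (limma). KIF20A, a motor of the central spindle needed for cytokinesis, gave the next values. KIF20A signal at 0 h was 153 and 166 in sgQKI+QKI7-WT, 181 and 165 in sgQKI+QKI7-△KH and 145 and 146 in sgQKI+EV, against 149 and 165 in sgNS+EV. At 4 h KIF20A was 137 and 137 in sgQKI+QKI7-WT, 119 and 126 in sgQKI+QKI7-△KH and 116 and 95.6 in sgQKI+EV, against 128 and 123 in sgNS+EV. At 8 h KIF20A was 76.8 and 75.2 in sgQKI+QKI7-WT, 76.8 and 82.7 in sgQKI+QKI7-△KH and 64.9 and 61.03 in sgQKI+EV, against 94.2 and 100.5 in sgNS+EV. KIF20A in sgQKI+EV was below sgNS+EV at all 3 times without overlap, by more at 8 h. KIF20A changed over 8 h by -1.06 log2 in sgQKI+QKI7-WT, -1.11 in sgQKI+QKI7-△KH, -1.19 in sgQKI+EV and -0.69 in sgNS+EV, each ± 0.08 (SE) and with an adjusted p of at most 1.36e-07 (limma). The other kinesins were KIF14, KIF18A, KIF23, KIF2C, KIF4A and CENPE, and their changes over 8 h ran from -1.63 for KIF18A to -1.04 for KIF4A in sgQKI+EV and from -1.22 for KIF18A to -0.65 for KIF4A in sgNS+EV.

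Centromere and kinetochore genes ranged from CENPF, among the 5 largest falls, to SPC25, among the 5 smallest. CENPA is the histone H3 variant that marks centromeres. CENPA signal at 0 h was 138 and 155 in sgQKI+QKI7-WT, 157 and 148 in sgQKI+QKI7-△KH and 139 and 130.2 in sgQKI+EV, against 136 and 140.4 in sgNS+EV. At 4 h CENPA was 85.6 and 94.7 in sgQKI+QKI7-WT, 76.0 and 78.1 in sgQKI+QKI7-△KH and 82.6 and 73.1 in sgQKI+EV, against 91.3 and 90.6 in sgNS+EV. At 8 h CENPA was 54.0 and 45.6 in sgQKI+QKI7-WT, 50.1 and 52.4 in sgQKI+QKI7-△KH and 43.7 and 41.2 in sgQKI+EV, against 63.5 and 67.5 in sgNS+EV. The 6 libraries with the QKI guide were below both sgNS+EV libraries for CENPA at 8 h. CENPA changed over 8 h by -1.54 log2 in sgQKI+QKI7-WT, -1.56 in sgQKI+QKI7-△KH, -1.64 in sgQKI+EV and -1.07 in sgNS+EV, each ± 0.08 (SE) and with an adjusted p of at most 1.87e-10 (limma). CENPF, a large kinetochore and nuclear matrix protein, lost more. CENPF signal at 0 h was 182 and 194 in sgQKI+QKI7-WT, 207 and 194 in sgQKI+QKI7-△KH and 179.8 and 181 in sgQKI+EV, against 189 and 201 in sgNS+EV. At 4 h CENPF was 152 and 129 in sgQKI+QKI7-WT, 112 and 114 in sgQKI+QKI7-△KH and 102 and 89.9 in sgQKI+EV, against 139 and 124 in sgNS+EV. At 8 h CENPF was 61.6 and 60.5 in sgQKI+QKI7-WT, 62.7 and 64.5 in sgQKI+QKI7-△KH and 51.7 and 49.4 in sgQKI+EV, against 71.0 and 75.6 in sgNS+EV. For CENPF too the sgQKI+EV pair was the lowest and the sgNS+EV pair the highest at 8 h. CENPF changed over 8 h by -1.61 log2 in sgQKI+QKI7-WT, -1.64 in sgQKI+QKI7-△KH, -1.81 in sgQKI+EV and -1.40 in sgNS+EV, each ± 0.08 (SE) and with an adjusted p of at most 1.60e-12 (limma). INCENP is the scaffold of the chromosomal passenger complex. INCENP signal at 0 h was 67.0 and 74.1 in sgQKI+QKI7-WT, 81.0 and 77.1 in sgQKI+QKI7-△KH and 70.7 and 74.6 in sgQKI+EV, against 67.2 and 70.6 in sgNS+EV. At 4 h INCENP was 62.1 and 56.0 in sgQKI+QKI7-WT, 53.9 and 54.1 in sgQKI+QKI7-△KH and 50.8 and 41.2 in sgQKI+EV, against 48.6 and 45.7 in sgNS+EV. At 8 h INCENP was 29.6 and 28.9 in sgQKI+QKI7-WT, 31.8 and 32.9 in sgQKI+QKI7-△KH and 24.8 and 24.5 in sgQKI+EV, against 35.4 and 34.8 in sgNS+EV. The sgQKI+EV pair of INCENP was just above the sgNS+EV pair at 0 h and below every other library at 8 h. INCENP changed over 8 h by -1.24 log2 in sgQKI+QKI7-WT, -1.26 in sgQKI+QKI7-△KH, -1.52 in sgQKI+EV and -0.95 in sgNS+EV, each ± 0.08 (SE) and with an adjusted p of at most 9.43e-10 (limma).

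SPC25, a subunit of the NDC80 complex, was one of the most stable members. SPC25 signal at 0 h was 117 and 119 in sgQKI+QKI7-WT, 139 and 142 in sgQKI+QKI7-△KH and 118 and 117 in sgQKI+EV, against 112 and 113 in sgNS+EV. At 4 h SPC25 was 129.9 and 115 in sgQKI+QKI7-WT, 112 and 117 in sgQKI+QKI7-△KH and 110.3 and 95.9 in sgQKI+EV, against 115 and 107 in sgNS+EV. At 8 h SPC25 was 82.6 and 76.9 in sgQKI+QKI7-WT, 86.4 and 90.1 in sgQKI+QKI7-△KH and 71.7 and 71.4 in sgQKI+EV, against 75.1 and 81.9 in sgNS+EV. SPC25 changed little by 4 h in sgQKI+QKI7-WT and sgNS+EV, where the pairs overlapped those at 0 h. SPC25 changed over 8 h by -0.56 log2 in sgQKI+QKI7-WT, -0.66 in sgQKI+QKI7-△KH, -0.71 in sgQKI+EV and -0.51 in sgNS+EV, each ± 0.07 (SE) and with an adjusted p of at most 1.74e-06 (limma). NDC80, NUF2, CDCA8 (borealin) and BIRC5 (survivin) lay between, with changes of -1.02, -0.75, -1.20 and -0.89 in sgQKI+EV and -0.57, -0.45, -0.73 and -0.67 in sgNS+EV, in that order.

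Of the spindle assembly genes, KPNA2 and ASPM lost most. KPNA2, importin alpha 1, carries nuclear proteins and binds the spindle factor TPX2 (chromosome 17, 68035519 to 68046842, plus strand). Related copies of KPNA2 exist in the genome, so some reads may have been divided among them. KPNA2 signal at 0 h was 969.7 and 1017 in sgQKI+QKI7-WT, 1095 and 1051 in sgQKI+QKI7-△KH and 914 and 889 in sgQKI+EV, against 887 and 955 in sgNS+EV. At 4 h KPNA2 was 741 and 677 in sgQKI+QKI7-WT, 591 and 617 in sgQKI+QKI7-△KH and 536 and 488 in sgQKI+EV, against 665 and 621 in sgNS+EV. At 8 h KPNA2 was 355 and 343 in sgQKI+QKI7-WT, 323 and 343 in sgQKI+QKI7-△KH and 272 and 255 in sgQKI+EV, against 403 and 442 in sgNS+EV. At 8 h the sgNS+EV pair of KPNA2 was the highest and the sgQKI+EV pair the lowest, and neither overlapped another pair. KPNA2 changed over 8 h by -1.51 log2 in sgQKI+QKI7-WT, -1.69 in sgQKI+QKI7-△KH, -1.77 in sgQKI+EV and -1.12 in sgNS+EV, each ± 0.07 (SE) and with an adjusted p of at most 1.55e-11 (limma). ASPM, a protein of the spindle poles, has a QKI hexamer in its 3′ UTR. ASPM signal at 0 h was 46.6 and 43.9 in sgQKI+QKI7-WT, 53.2 and 50.6 in sgQKI+QKI7-△KH and 46.2 and 43.9 in sgQKI+EV, against 47.2 and 46.2 in sgNS+EV. At 4 h ASPM was 32.6 and 24.6 in sgQKI+QKI7-WT, 23.4 and 22.5 in sgQKI+QKI7-△KH and 21.7 and 19.6 in sgQKI+EV, against 35.7 and 32.2 in sgNS+EV. At 8 h ASPM was 12.3 and 12.2 in sgQKI+QKI7-WT, 12.8 and 14.5 in sgQKI+QKI7-△KH and 11.1 and 10.7 in sgQKI+EV, against 16.1 and 14.8 in sgNS+EV. ASPM was at like levels in the genotypes at 0 h apart from the higher sgQKI+QKI7-△KH pair, and at 8 h the sgQKI+EV pair was the lowest. ASPM changed over 8 h by -1.80 log2 in sgQKI+QKI7-WT, -1.85 in sgQKI+QKI7-△KH, -1.95 in sgQKI+EV and -1.53 in sgNS+EV, each ± 0.10 (SE) and with an adjusted p of at most 1.10e-11 (limma). CKAP2L, a mitotic spindle protein (radmis), also has the hexamer. CKAP2L signal at 0 h was 86.0 and 87.0 in sgQKI+QKI7-WT, 97.2 and 92.7 in sgQKI+QKI7-△KH and 87.3 and 87.3 in sgQKI+EV, against 78.7 and 80.7 in sgNS+EV. At 4 h CKAP2L was 76.9 and 64.2 in sgQKI+QKI7-WT, 58.0 and 58.1 in sgQKI+QKI7-△KH and 52.1 and 50.8 in sgQKI+EV, against 69.3 and 65.0 in sgNS+EV. At 8 h CKAP2L was 36.8 and 36.7 in sgQKI+QKI7-WT, 36.8 and 41.4 in sgQKI+QKI7-△KH and 32.3 and 31.3 in sgQKI+EV, against 44.5 and 42.6 in sgNS+EV. CKAP2L in sgQKI+EV was above sgNS+EV at 0 h and below it at 4 and 8 h, without overlap. CKAP2L changed over 8 h by -1.21 log2 in sgQKI+QKI7-WT, -1.26 in sgQKI+QKI7-△KH, -1.43 in sgQKI+EV and -0.86 in sgNS+EV, each ± 0.08 (SE) and with an adjusted p of at most 1.26e-09 (limma). TPX2, NUSAP1, PRC1, DLGAP5 and HMMR, which nucleate, bundle or stabilise spindle microtubules, fell by less, with changes between -1.05 and -0.94 in sgQKI+EV and between -0.59 and -0.54 in sgNS+EV.

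TOP2A and MKI67 act on chromosome structure, and ANLN and ECT2 in cytokinesis. TOP2A, the topoisomerase that disentangles sister chromatids (chromosome 17, 40388516 to 40417950, minus strand), was among the members with a large fall. TOP2A signal at 0 h was 645 and 647 in sgQKI+QKI7-WT, 742 and 719 in sgQKI+QKI7-△KH and 649 and 635 in sgQKI+EV, against 629 and 664 in sgNS+EV. At 4 h TOP2A was 553 and 493 in sgQKI+QKI7-WT, 461 and 458 in sgQKI+QKI7-△KH and 412 and 371 in sgQKI+EV, against 507 and 474 in sgNS+EV. At 8 h TOP2A was 257 and 250.1 in sgQKI+QKI7-WT, 276 and 286 in sgQKI+QKI7-△KH and 217 and 213 in sgQKI+EV, against 302 and 308 in sgNS+EV. TOP2A at 8 h was lowest in sgQKI+EV, intermediate in the 2 lines with added QKI7 and highest in sgNS+EV, with no pair overlapping another. TOP2A changed over 8 h by -1.35 log2 in sgQKI+QKI7-WT, -1.38 in sgQKI+QKI7-△KH, -1.58 in sgQKI+EV and -1.08 in sgNS+EV, each ± 0.07 (SE) and with an adjusted p of at most 6.96e-12 (limma). MKI67, the Ki-67 protein that coats mitotic chromosomes (chromosome 10, 128096659 to 128126385, minus strand), is the longest member transcript. MKI67 signal at 0 h was 196 and 214 in sgQKI+QKI7-WT, 234 and 217 in sgQKI+QKI7-△KH and 195 and 191 in sgQKI+EV, against 201 and 214 in sgNS+EV. At 4 h MKI67 was 180.0 and 148 in sgQKI+QKI7-WT, 136 and 134 in sgQKI+QKI7-△KH and 122 and 98.5 in sgQKI+EV, against 146 and 129 in sgNS+EV. At 8 h MKI67 was 79.6 and 76.3 in sgQKI+QKI7-WT, 82.2 and 82.3 in sgQKI+QKI7-△KH and 64.1 and 60.6 in sgQKI+EV, against 90.1 and 93.9 in sgNS+EV. MKI67 gave the same order of pairs at 8 h, although its 4 h libraries varied more. MKI67 changed over 8 h by -1.38 log2 in sgQKI+QKI7-WT, -1.45 in sgQKI+QKI7-△KH, -1.62 in sgQKI+EV and -1.16 in sgNS+EV, each ± 0.09 (SE) and with an adjusted p of at most 3.32e-10 (limma). ANLN, an actin-binding scaffold of the cleavage furrow, changed by -1.12 in sgQKI+QKI7-WT, -1.20 in sgQKI+QKI7-△KH, -1.34 in sgQKI+EV and -0.86 in sgNS+EV. ECT2, which activates RhoA there, changed by -1.26, -1.27, -1.43 and -1.07 in the same genotypes.

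**Figure D3:**
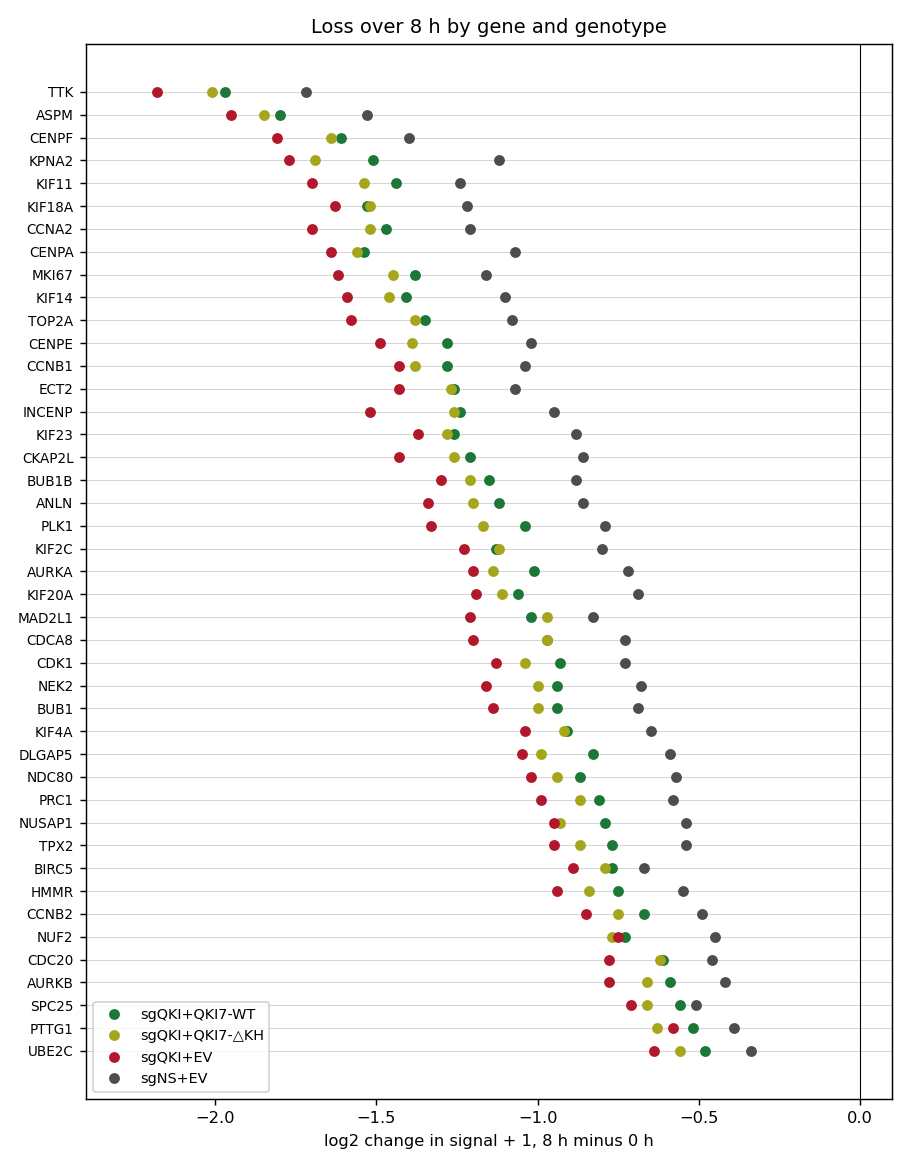
Log2 change in signal plus 1 from 0 to 8 h for each of the 43 mitotic genes (rows, largest mean fall at the top), with 1 point per genotype. All points are below 0, from -2.18 for TTK in sgQKI+EV to -0.34 for UBE2C in sgNS+EV, and the sgNS+EV point is the rightmost in each row.

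Mitotic mRNAs were lost faster in sgQKI+EV than in sgNS+EV for 15 of 43 members, and none was lost more slowly past the threshold. The quantity tested is the decay difference, the log2 change from 0 to 8 h in one genotype minus that in the other, as an interaction in the limma fit. Over all 12547 genes 84 were called lower, 0.669%, and 1 was called higher. The median decay difference of the 43 members was -0.42, against -0.14 over all genes, and all 43 were below 0, as were 9916 of the 12547 genes. Of the members 38 lay in the lowest 10% of all genes and their median percentile was 2.5. Without adjustment, 39 members had a p under 0.05. Counts at an unadjusted p, here and below, have no share of all genes beside them. The shares that are given are for adjusted calls and are no background for those counts. At 8 h both sgQKI+EV libraries were below both sgNS+EV libraries for all 43 members, which held for 70.6% of all genes. At 0 h the same held for 8 members (38.4% of all genes), while 11 members had both sgQKI+EV libraries above (9.99% of all genes).

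The largest decay difference was that of KPNA2, -0.65 ± 0.11 (SE, adjusted p = 0.00923, limma). CKAP2L had -0.57 ± 0.11 (adjusted p = 0.0183, limma), CENPA -0.57 ± 0.12 (adjusted p = 0.0284) and INCENP -0.57 ± 0.12 (adjusted p = 0.0284). PLK1 had -0.54 ± 0.12 (adjusted p = 0.0389, limma), KIF20A -0.51 ± 0.12 (adjusted p = 0.0434) and TOP2A -0.50 ± 0.10 (adjusted p = 0.0245). CCNA2 had -0.49 ± 0.10 (adjusted p = 0.0321, limma) and KIF23 -0.49 ± 0.10 (adjusted p = 0.0362). KIF23, whose product forms the centralspindlin complex, is among them with a hexamer in its 3′ UTR. AURKA, NEK2, a centrosome kinase, BUB1, a checkpoint kinase, KIF11, NDC80 and CDK1 complete the 15, with decay differences between -0.48 and -0.40 and adjusted p between 0.0284 and 0.0434. By role, 6 of 11 cyclin and kinase genes passed, 3 of 8 kinesins, 3 of 8 centromere and kinetochore genes, 2 of 8 spindle genes, 1 of 2 chromosome structure genes, 0 of 2 cytokinesis genes and 0 of 4 APC/C and checkpoint genes. Unadjusted p was under 0.05 for both cytokinesis genes and for 2 of the 4 APC/C and checkpoint genes. Just below the threshold stood BUB1B at -0.42 (adjusted p = 0.053) and ANLN at -0.48 (adjusted p = 0.0586, limma). The smallest differences were -0.19 ± 0.10 for SPC25 and -0.19 ± 0.11 for PTTG1 (SE).

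These calls rest on every library. With any 1 of the 8 libraries of the comparison left out, 0 or 1 members passed: 0 without sgNS+EV 0 h replicate 1, sgNS+EV 8 h replicate 2, sgQKI+EV 0 h replicate 1 or sgQKI+EV 8 h replicate 2, and 1, KPNA2, without any of the other 4. In those 8 fits the median over members was between -0.47 and -0.42 and all 43 stayed below 0. With quantile normalisation the median was -0.24, against -0.01 over all genes, and 8 members passed, 7 of them among the 15, beside 0.430% of all genes. With library totals in place of the ERCC scale the median was -0.31, against -0.03 over all genes, and 15 passed, 12 of them the same, beside 0.470% of all genes. Without the 4 h libraries 37 members passed beside 3.45% of all genes, and with only the 4 groups compared 39 passed beside 10.7%, each including the 15.

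**Figure D4:**
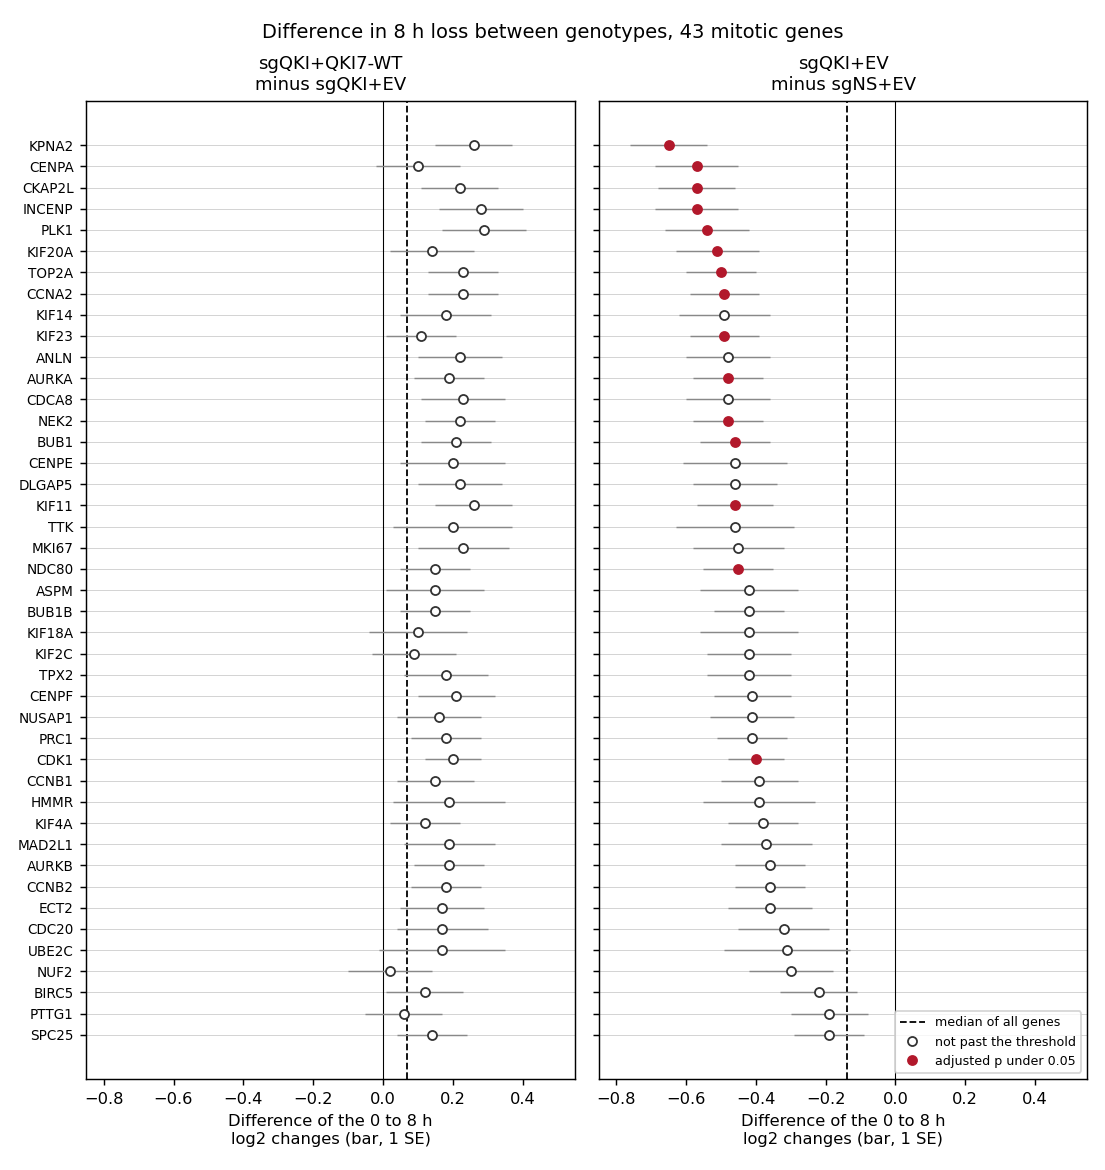
Difference between genotypes in the log2 change from 0 to 8 h for each of the 43 mitotic genes (rows), with bars of 1 SE, for sgQKI+QKI7-WT minus sgQKI+EV (left) and sgQKI+EV minus sgNS+EV (right). The dashed lines are the medians of all genes, 0.07 and -0.14. Filled points passed the threshold: 0 on the left, where values ran from 0.02 to 0.29, and 15 on the right, where they ran from -0.65 to -0.19.

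Other genes of cell division were taken as 2 further lists. Of 92 other mitotic genes, 5 passed the threshold with a larger fall in sgQKI+EV than in sgNS+EV and 0 with a smaller one, beside the 0.669% of all genes called lower. Their median decay difference was -0.29, and 88 of the 92 were below 0. CKS2, a CDK-binding subunit, had a decay difference of -0.49 ± 0.11 (SE, adjusted p = 0.0399, limma). FAM83D, which recruits a kinase to the spindle, had -0.49 ± 0.11 (adjusted p = 0.0429, limma). RACGAP1, the partner of KIF23 in centralspindlin, had -0.46 ± 0.11 (adjusted p = 0.0456, limma). The other two were CDCA2 at -0.46 (adjusted p = 0.0318) and DEPDC1B at -0.38 (adjusted p = 0.0409, limma), named after their values were seen. Of 53 genes of DNA replication and S phase, 1 passed, and the median was -0.22. The difference between these lists and the 43 members was not tested.

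Between sgQKI+QKI7-WT and sgQKI+EV, and between the 2 forms of QKI7, no mitotic mRNA passed the threshold in its loss. The loss in sgQKI+QKI7-△KH was not tested against that in sgQKI+EV. The comparison of sgQKI+QKI7-WT with sgQKI+EV shares the sgQKI+EV libraries with the one above. For sgQKI+QKI7-WT against sgQKI+EV, 0 of 43 members passed, as did 0% of all genes (limma), and 8 members had an unadjusted p under 0.05. The median decay difference was 0.18, against 0.07 over all genes, and the members ran from 0.02 for NUF2 to 0.29 for PLK1. With library totals the median was 0.09, with 3 members below 0, and with quantile normalisation 0.07, with 8 below 0. With a median SE of 0.12 for a member, differences of this size could not be told from 0 after adjustment over all genes. For sgQKI+QKI7-WT against sgQKI+QKI7-△KH, 0 of 43 members and 0% of all genes passed, no member had an unadjusted p under 0.05, and members ran from -0.05 for MAD2L1 to 0.18 for KPNA2 around a median of 0.06, with 3 below 0. The sign of the members' median turned with the scale, since with library totals it was -0.01 and 24 members were below 0. The median of all genes moved too, from 0.00 on the ERCC scale to -0.06 with library totals. On both scales the members' median lay above it. A p that misses the threshold does not show that the 2 forms of QKI7 act alike.

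Against sgNS+EV, the lines with added QKI7 had values of the same sign as sgQKI+EV. These comparisons were added after the data had been seen, and they share the sgNS+EV libraries with the one above. In sgQKI+QKI7-WT minus sgNS+EV, 0 of 43 members and 0% of all genes passed, 24 members had an unadjusted p under 0.05, and the median was -0.25, against -0.08 over all genes. In sgQKI+QKI7-△KH minus sgNS+EV, 1 member passed, KPNA2 at -0.56 (adjusted p = 0.045, limma), where 0.0717% of all genes were called lower, and the median was -0.31, against -0.08 over all genes. KPNA2 kept that call without sgNS+EV 8 h replicate 1 and lost it without any 1 of the other 7 libraries. For KPNA2 the 3 decay differences against sgNS+EV were -0.38 in sgQKI+QKI7-WT, -0.56 in sgQKI+QKI7-△KH and -0.65 in sgQKI+EV. For PLK1 they were -0.25, -0.38 and -0.54, and for CENPA -0.47, -0.49 and -0.57, in the same order.

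Before the chase, no mitotic mRNA passed the threshold in the main fit of the genotype comparisons given here. At 0 h, sgQKI+QKI7-△KH was not tested against sgNS+EV or sgQKI+EV, and sgQKI+QKI7-WT was not tested against sgNS+EV. For sgQKI+EV against sgNS+EV, 0 of 43 passed beside 1.55% of all genes, 2 members had an unadjusted p under 0.05, and the members ran from -0.12 to 0.19 around a median of 0.00, which was 0.06 above the median of all genes. With library totals the median in this comparison was 0.11, against 0.04 over all genes, and 4 members passed as higher beside 1.90% of all genes, while with quantile normalisation the median was 0.08 and 3 passed as higher beside 2.59%. For sgQKI+QKI7-WT against sgQKI+EV, 0 of 43 passed beside 0.0877% of all genes, 0 had an unadjusted p under 0.05, and the median was 0.05. For sgQKI+QKI7-WT against sgQKI+QKI7-△KH, 0 of 43 passed beside 3.75% of all genes, 13 had an unadjusted p under 0.05, and all 43 were below 0 with a median of -0.15, which was also the median of all genes. On library totals instead of the ERCC scale that median was -0.01, so the shift was shared by most genes on the ERCC scale. Without the 4 h libraries, a fit added after the data had been seen, 10 members passed as lower in this last comparison beside 12.5% of all genes.

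The fall of a member varied with its transcript length. The 22 members with transcripts under 3000 bases had a median change over 8 h of -1.03 in sgQKI+EV and -0.63 in sgNS+EV. The 14 members of 3000 to 5000 bases had -1.35 in sgQKI+EV and -0.87 in sgNS+EV, and the 7 members of 5000 bases or more had -1.59 in sgQKI+EV and -1.10 in sgNS+EV. Across the 43 members the correlation of log2 change with log length was r = -0.65 (Spearman's rho -0.63) in sgQKI+EV and r = -0.65 (rho -0.66) in sgNS+EV. Across 11312 measured genes it was -0.41 in sgQKI+EV and -0.40 in sgNS+EV. These correlations are across genes, which share libraries and are not independent, and they carry no test. In sgQKI+EV, KPNA2 (2456 bases) had the largest fall of the shortest class and TTK (3010 bases) that of the middle class. The decay difference between sgQKI+EV and sgNS+EV varied less with length, with medians of -0.41, -0.46 and -0.45 from the shortest class to the longest. Its correlation with log length was r = -0.34 (rho -0.35) across the members and r = -0.13 across measured genes.

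**Figure D5:**
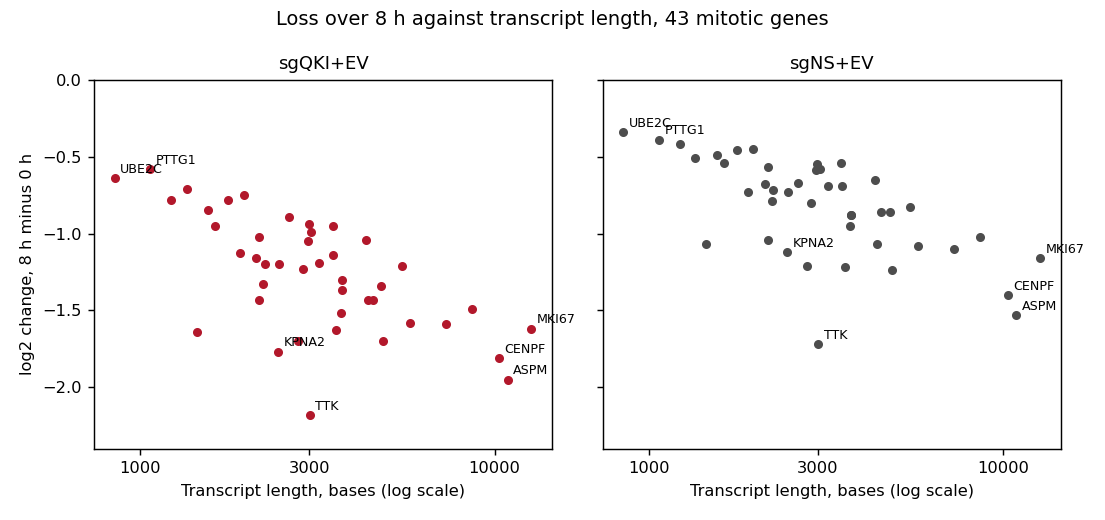
Log2 change from 0 to 8 h (vertical axis) against transcript length in bases (log scale) for the 43 mitotic genes in sgQKI+EV (left) and sgNS+EV (right). Longer transcripts lie lower, from UBE2C and PTTG1 at the top left to CENPF and ASPM at the lower right, with r = -0.65 in each panel, and TTK lies below the rest.

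The QKI hexamer did not separate members by their decay difference. Members with ACUAAC or ACUAAU in the 3′ UTR had a median decay difference between sgQKI+EV and sgNS+EV of -0.46 (n = 11) and those without it -0.42 (n = 32). Of the 15 members that passed, 3 had a hexamer, KIF11, KIF23 and CKAP2L, and of the other 28 members 8 had one. KPNA2, with the largest difference, had none in its 3′ UTR and 2 elsewhere in its transcript. Over all measured genes the medians were -0.16 with a hexamer and -0.14 without. Members with a hexamer had a larger fall over 8 h in sgNS+EV, with a median of -1.07 against -0.68 without. Over all measured genes these medians were -0.87 and -0.61. Members with a hexamer also tended to have longer transcripts, so motif and length cannot be told apart in this contrast. An effect of the motif was not tested.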

How the data were processed

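PolyA RNA of 24 libraries was sequenced after a stranded mRNA kit, per the labels' protocols, and STAR, RSEM and GRCh38 are named without versions in the submitters' processing notes. The deposited values are a linear signal per gene that the authors appear to have scaled to ERCC RNA. That reading rests on the values, and the unit before scaling and the read depth are not given in the sources used here, so no interval from counts could be had and levels were not compared between genes. Of 12585 rows, 38 were ERCC RNA.

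From these values log2(signal + 1) was computed and 12 group means were fitted over all 24 libraries with limma 3.58.1 (R 4.3.3, empirical Bayes with trend, 12 residual degrees of freedom). P-values are two-sided, adjusted by Benjamini-Hochberg over 12547 genes, and the threshold was 0.05. A minimum signal of 1 in 2 libraries removed 0 genes. Motifs were counted and figures drawn with Python 3.11.15. Named genes were 7 fixed members, the 5 largest and 5 smallest mean falls, the 8 largest decay differences and the member with the largest spread. Members and lists were chosen with earlier results of these data known. Alternatives covered scaling, pseudocount, filter, replicate block, libraries left out, a fit of the compared groups only and, chosen after seeing the data, a fit without the 4 h libraries.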

Additional observations from a re-analysis of the deposited data

Results flagged for a closer look

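For the genes below, a difference between genotypes in the change from 0 to 8 h passed the threshold when tested itself, as an interaction in the limma fit. For sgQKI+EV minus sgNS+EV these were KPNA2 at -0.65, CKAP2L at -0.57, CENPA at -0.57, INCENP at -0.57, PLK1 at -0.54, KIF20A at -0.51, TOP2A at -0.50, CCNA2 at -0.49, KIF23 at -0.49, NEK2 at -0.48, AURKA at -0.48, KIF11 at -0.46, BUB1 at -0.46, NDC80 at -0.45 and CDK1 at -0.40. Among the other mitotic genes they were CKS2 at -0.49, FAM83D at -0.49, RACGAP1 at -0.46, CDCA2 at -0.46 and DEPDC1B at -0.38. For sgQKI+QKI7-△KH minus sgNS+EV it was KPNA2 at -0.56. Groups held 2 libraries each, so single libraries were not tested for standing apart.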

How the results depend on the processing

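Of 1248 alternative values of 99 results for single genes, 1085 kept their direction and their side of the threshold. Another 148 kept their direction but no longer passed, and 15 changed sign. These counts pool falls over 8 h with decay differences, which were far less stable. With 1 library left out, 3 of 688 tests of a member's fall over 8 h no longer passed. Of the 15 decay differences called for sgQKI+EV minus sgNS+EV, 0 or 1 still passed. Changes over 8 h that turned above 0 with quantile normalisation were those of UBE2C (0.15 in sgQKI+QKI7-WT, 0.10 in sgQKI+QKI7-△KH, 0.12 in sgQKI+EV, 0.24 in sgNS+EV), AURKB (0.07 in sgQKI+QKI7-WT, 0.02 in sgQKI+QKI7-△KH, 0.18 in sgNS+EV), SPC25 (0.02 in sgQKI+QKI7-WT, 0.03 in sgQKI+EV, 0.04 in sgNS+EV) and PTTG1 (0.01 in sgNS+EV). With library totals they were those of UBE2C (0.01 in sgQKI+QKI7-WT, 0.11 in sgNS+EV), PTTG1 (0.06) and AURKB (0.02), the last 2 in sgNS+EV. Quantile normalisation forces 1 distribution on all libraries.

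The members' median minus that of all genes over 8 h was -0.53 in sgQKI+QKI7-WT, -0.56 in sgQKI+QKI7-△KH, -0.57 in sgQKI+EV and -0.34 in sgNS+EV with quantile normalisation. With a pseudocount of 0.1 it was -0.20 in sgQKI+QKI7-WT and -0.32 in sgQKI+EV, and in sgQKI+EV it was -0.46 to -0.34 with 1 library left out. Percentages in brackets are of all genes called in that direction in the same fit. With quantile normalisation, 1 member rose from 0 to 4 h in each of the 3 lines with the QKI guide (21.1 to 28.9%) and 1 over 8 h in sgNS+EV (33.2%), and 27 fell from 4 to 8 h in each of sgQKI+QKI7-△KH (1510 genes of 12547) and sgQKI+EV (13.5%). From 0 to 4 h in sgNS+EV, 12 fell (25.4%) and 7 rose (7.40%) with library totals, and 9 fell (19.0%) and 9 rose (23.3%) with quantile normalisation. With only the compared groups, 7 fell from 0 to 4 h in sgQKI+QKI7-WT (19.9%). With 1 library left out, 0 to 2 members rose from 0 to 4 h in sgQKI+QKI7-WT (2 without replicate 2 of 4 h) and 0 to 1 in sgNS+EV.

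At 0 h, 4 members were higher in sgQKI+EV than in sgNS+EV with library totals (1.90%), 3 with quantile normalisation (2.59%) and 2 with only the compared groups (1.15%). In sgQKI+QKI7-WT against sgQKI+QKI7-△KH, 1 was lower among genes averaging 10 or more (7.81%) and 10 without the 4 h libraries (12.5%). The decay difference of sgQKI+EV minus sgNS+EV was called for 8 members with quantile normalisation (0.430%), 37 without the 4 h libraries (3.45%), 39 with only the compared groups (10.7%) and 0 to 1 with 1 library left out. For sgQKI+QKI7-WT minus sgNS+EV 1 member passed with library totals (0.0717%) and 3 with quantile normalisation (0.0797%). For sgQKI+QKI7-△KH minus sgNS+EV 3 passed with library totals (0.167%), 6 with quantile normalisation (0.311%), 4 with only the compared groups (0.383%) and 0 to 1 with 1 library left out. The cause was not tested.

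Same-numbered libraries did not deviate together as a rule. Over 66 pairs of groups, r was -0.42 to 0.48 with a median of -0.02, and it was above 0.1 in 21 of them. The numbers were therefore not taken as pairs. With a replicate block 16 members (0.861%) passed in the decay difference of sgQKI+EV minus sgNS+EV, against 15 without it, and 1 member rose from 0 to 4 h in sgNS+EV (0.526%). With 2 libraries a group and unknown depth, decay differences of members had a median SE of 0.12.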
